A study of Mus musculus with 18 samples.

Results

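The hearts described here came from mice aged 15 to 16 months, old mice in this study, and were compared within 4 pairs of 1 wild-type (Wt) and 1 taurine transporter knockout (Taut -/-) heart. All 8 deposited columns whose sample title starts with Wt belong to them, out of 18 in the series. Each pair of hearts was hybridised to 1 two-colour array that carries its oligonucleotides in 2 grids, so the 8 columns are 4 arrays, out of 9. The other 5 arrays compare the same genotypes at 2 months, called young below. Separate mice were used for the pairs, the knockout is of the whole animal as far as the labels say, and the sources used here give neither strain nor sex, nor the founder of the line. Knockout RNA was labelled with Cy5 in pairs 1 and 3 and with Cy3 in pairs 2 and 4. The array is a small one of chosen genes: 584 of its 768 features have values in these hearts, 528 of these carry a gene symbol, and they cover 219 genes, of which 202 have 2 spots per grid. All 219 genes were followed in all 4 pairs.

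Taut is the older name of Slc6a6, the sodium- and chloride-dependent carrier that brings taurine into cells. Taurine is an amino sulfonic acid that is abundant in the heart, where it serves as an organic osmolyte and is linked to calcium handling and to mitochondrial function, and in the liver it is joined to bile acids. Heart muscle under load is known to turn on genes of the fetal heart, among them the natriuretic peptide gene Nppa and the skeletal actin gene Acta1.

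Each value is a log2 ratio of the 2 hearts of a pair, as deposited, and the labels do not say which heart is the numerator. Signs are therefore given as deposited, as the positive or negative side, with no statement on which genotype had more. If the deposited ratio were instead always Cy5 to Cy3, the genotype difference would be the dye coefficient, 0.5 times the difference between the pairs with the knockout in Cy5 and those with it in Cy3, and it would then read knockout over wild type. It is shown beside the mean of the genes past the threshold. Since the deposited sign has no stated numerator, the sign of the dye coefficient cannot be set against that of the mean. The arrays were not centred on 1 level: the median over the genes was -0.26, -0.03, -0.19 and 0.39 in pairs 1 to 4, and 75, 98, 72 and 170 of the 219 genes were on the positive side. Pair 4 thus leaned to the positive side and the others to the negative side. Across genes, the 2 grids of an array correlated at 0.33, 0.49, 0.68 and 0.72 (Pearson, 219 genes), lowest in pair 1, and single pairs with each other at -0.13 (pairs 3 and 4) to 0.41 (pairs 1 and 3). Ratios lie between 0.01 and 100, and 14 of the 4672 spot values stand exactly at these ends, 8 of them in the first grid of pair 1 and 5 in the second grid of pair 2. Intensities are not part of the values used here, so it is not known which spots were well above background. The precision is limited by the number of arrays.

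The knocked-out gene itself came first. Slc6a6 had log2 ratios of 0.62, 0.70, 0.89 and 0.34 in pairs 1 to 4. It was on the positive side in every pair and in all 8 columns, with a mean of 0.64 ± 0.23 (SD, n = 4), 1.55-fold in ratio, and did not pass the test (adjusted p = 0.225, limma). Its dye coefficient was 0.12. When each array was centred on its own median, pair 4 went to -0.05 and the other 3 pairs stayed positive. No source used here places the oligonucleotide relative to the deleted part of the gene, so this value checks neither the labels nor the direction of the ratio. The other measured genes of taurine and sulfur amino acid handling, a list of 5 with Slc6a6, did not pass the test: Csad, which makes the taurine precursor hypotaurine, had a mean of 0.23, and Baat, which joins bile acids to taurine or glycine, -0.46.

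Over all genes, 6 of 219 (2.74%) passed an adjusted p of 0.05 for a mean different from 0, 2 on the positive side (0.913%) and 4 on the negative side (1.83%). They were Nppa and Abcc3 on the positive side and Acta1, Il10, Slc5a3 and Slc10a1 on the negative side. Before adjustment, 23 genes had p under 0.05, 14 of them positive and 9 negative. Most genes lay near 0: the means of 22 genes exceeded 0.5 in size and those of 3 exceeded 1. In this fit, with a mean and a dye coefficient per gene, limma estimated infinite prior degrees of freedom and so gave every gene the same standard error, 0.25, so a gene whose pairs disagree was tested as if they did not. Without the dye coefficient each gene keeps part of its own spread, and 1 gene passed, Nppa (0.457%), with 18 at an unadjusted p under 0.05. Over only 4 pairs an exact sign-change test of a single gene cannot go below p = 0.125.

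Nppa, which encodes atrial natriuretic peptide, a hormone that lowers blood volume and pressure, had the largest mean of all genes. Its log2 ratios were 2.34, 3.04, 1.32 and 3.04 in pairs 1 to 4, and every one of its 16 spot values was positive, from 1.16 to 3.68. All pairs lay on 1 side, pair 3 lowest. The mean was 2.44 ± 0.82 (SD, n = 4), a 5.41-fold ratio (adjusted p = 2.09e-18 with the shared standard error and 0.00181 without the dye coefficient, limma). Its dye coefficient was -0.61 (adjusted p = 0.222), which is smaller in size and not past the threshold. Nppa was also the only measured gene of the atrial marker list, and no level is known, so a different amount of atrial tissue in the 2 hearts of a pair was not tested. In whole hearts, fewer cells of a type and less RNA per cell cannot be told apart, here and for every gene below.

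Acta1, the sarcomeric actin of skeletal muscle that the young and the loaded heart also use, had the largest mean on the negative side. Its log2 ratios were -2.82, -2.54, -4.85 and 0.80 in pairs 1 to 4. The first 3 pairs were far on the negative side in each spot, while all 4 spots of pair 4 were positive, from 0.50 to 1.12. The mean of -2.35 ± 2.34 (SD, n = 4), a 5.11-fold ratio, passed with the shared standard error (adjusted p = 1.59e-17, limma) and missed without the dye coefficient (adjusted p = 0.382). Without pair 4 the plain mean of the other 3 pairs was -3.40. The dye coefficient also passed, at -1.48 (adjusted p = 9.81e-07, limma). It is the only measured gene of the skeletal muscle marker list.

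The sequence before the start of both genes is shown because they lie farthest from 0, on opposite sides. These are the 250 bases before the RefSeq start in GRCm38.p6, 5′ to 3′ on the strand of the gene, with a TATAAA motif and a CArG box, the site bound by serum response factor, in capitals. Nppa is on chromosome 4 (chr4:148000472-148000721, plus strand) and Acta1 on chromosome 8 (chr8:123894776-123895025, minus strand).
Nppa: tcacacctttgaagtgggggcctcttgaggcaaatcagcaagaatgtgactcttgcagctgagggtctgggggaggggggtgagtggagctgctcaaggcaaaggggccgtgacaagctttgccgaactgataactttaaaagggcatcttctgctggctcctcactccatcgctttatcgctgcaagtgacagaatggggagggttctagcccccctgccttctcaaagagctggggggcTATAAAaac
Acta1: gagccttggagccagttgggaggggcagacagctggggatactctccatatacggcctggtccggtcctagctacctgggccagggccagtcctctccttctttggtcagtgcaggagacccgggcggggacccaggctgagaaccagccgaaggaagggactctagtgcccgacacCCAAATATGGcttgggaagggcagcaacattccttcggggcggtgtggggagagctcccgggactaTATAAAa
TATAAA was found in both windows, 4 to 9 bases before the start of Nppa and 2 to 7 bases before that of Acta1, and a CArG box in that of Acta1 alone, 64 to 73 bases before the start. Of 32851 RefSeq windows of this length, searched on both strands, 12.4% hold TATAAA and 1.47% a CArG box. The arrays measured RNA, not binding, and a match is a string of letters only.

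The other 4 genes past the threshold each have spots at an end of the scale. Il10, the anti-inflammatory cytokine interleukin 10, had log2 ratios of -3.99, -0.99, -0.76 and -0.15, and both of its spots in the first grid of pair 1 stood at a ratio of 0.01. All 4 pairs were negative, and the mean of -1.47 ± 1.71 (SD, n = 4; adjusted p = 4.09e-07, limma) became -0.81 without these spots (adjusted p = 0.0263, and 0.172 when the dye coefficient was dropped too). Its dye coefficient, which also rests on these spots, was -0.90 (adjusted p = 0.00862, limma). Slc5a3, the myo-inositol transporter, another osmolyte carrier, had -3.05, -0.18, -0.93 and 0.47, also with both spots of that grid at 0.01. Pair 1 stood apart and pair 4 was positive. Its mean of -0.92 ± 1.53 (SD, n = 4; adjusted p = 0.0118, limma) became -0.03 without the spots at the end (adjusted p = 0.957). Its dye coefficient, which also rests on the spots at the end, was -1.07 (adjusted p = 0.000885, limma). In the second grid of pair 1 its spots were positive, at 1.00 and 0.07.

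Abcc3, an efflux pump of organic anions and bile acids, had -0.37, 3.62, -0.42 and 0.61, with both spots of the second grid of pair 2 at a ratio of 100. The pairs fell 2 on each side. Its mean of 0.86 ± 1.90 (SD, n = 4; adjusted p = 0.0248, limma) was 1.75 in the second grid and -0.03 in the first, and 0.11 without the spots at the end (adjusted p = 0.897). Its dye coefficient, which also rests on these spots, was larger in size, -1.26 (adjusted p = 4.06e-05, limma). Slc10a1, the bile acid uptake carrier of the liver, had -2.21, -0.35, -0.50 and -0.22, and 1 of its spots in pair 1 stood at 0.01. All pairs were negative, pair 1 far below the rest, and the mean of -0.82 ± 0.93 (SD, n = 4; adjusted p = 0.0384, limma) became -0.50 without that spot (adjusted p = 0.292), with a dye coefficient of -0.54 (adjusted p = 0.352). Thus 3 genes, Nppa, Acta1 and Il10, passed once the values at the scale ends were left out, and 2 of them, Nppa and Acta1, when the dye coefficient was dropped as well. Acta1 has no spot at an end, so its own values were those with which it missed above without the dye coefficient. Only what the fit took from the other genes had changed. Leaving out pair 1 or pair 2 left 3 genes past the threshold each.

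**Figure D1:**
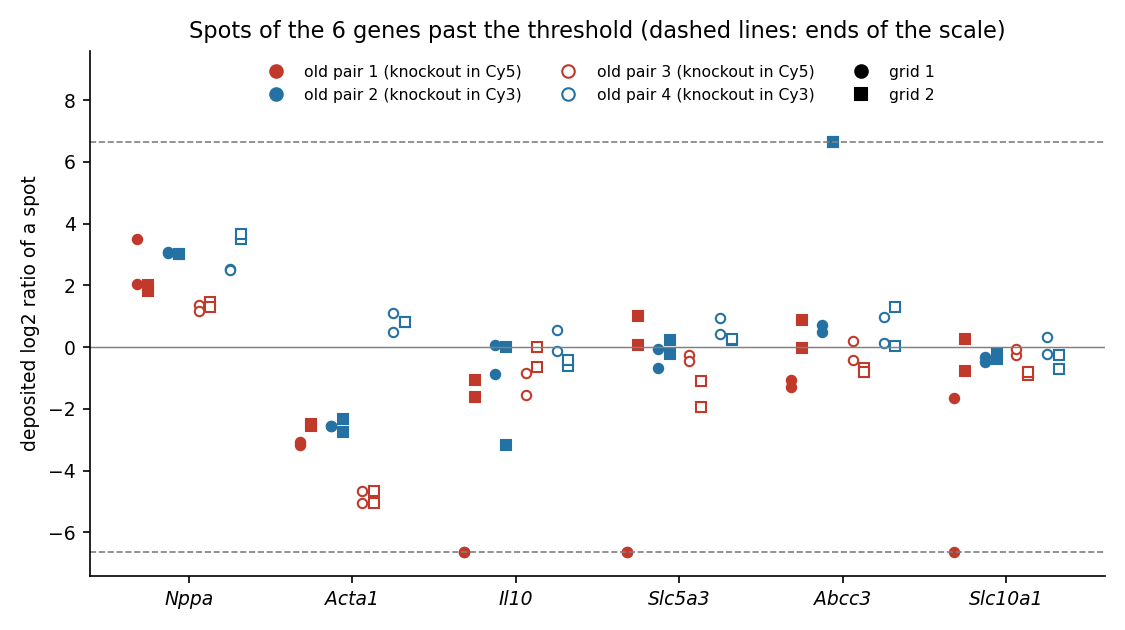
Deposited log2 ratio of each spot (vertical axis) for the 6 genes past the threshold, with pairs 1 and 2 filled, pairs 3 and 4 open, red for the knockout in Cy5, blue for Cy3, circles for grid 1 and squares for grid 2; identical values lie on each other. Dashed lines mark the ends of the scale at ratios of 0.01 and 100, where spots of Il10, Slc5a3, Abcc3 and Slc10a1 stand, while those of Nppa lie between 1.16 and 3.68.

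Genes that stayed on 1 side in every pair were a wider set. On the positive side there were 15 of 219 genes (6.85%) and on the negative side 18 (8.22%), and 14 of these 33 held their sign in all 8 columns, 7 on each side. After centring of the arrays, 29 of the 33 kept 1 sign. The 4 that did not were Slc6a6, A1bg, Gjb5 and Mtif2. Other genes joined: counted anew on the centred arrays, 26 of the 219 genes were positive in all 4 pairs and 28 negative. Which genes keep 1 sign thus depends on the level of the arrays. Apart from Nppa, Il10 and Slc10a1, none of the 33 passed the threshold.

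Among the genes with 1 sign in all 4 pairs, the largest positive means after Nppa were those of Slc38a2, Slc6a6, Fn1 and Slc38a4. Slc38a2, a sodium-coupled carrier of small neutral amino acids that cells turn on under hypertonic stress, had log2 ratios of 1.09, 0.60, 0.55 and 0.49, with a mean of 0.68 ± 0.27 (SD, n = 4; adjusted p = 0.153, limma). Slc38a4, a carrier of the same family, had 0.46, 0.46, 0.79 and 0.75 (mean 0.62 ± 0.18, SD, n = 4; adjusted p = 0.242, limma). Its 4 pairs lay closer together than those of Slc38a2, but its spots in the first grid of pair 1 were -0.94 and 0.66. Every spot of Slc38a2 was positive. Fn1, fibronectin, a protein of the extracellular matrix, had 0.72, 0.38, 0.36 and 1.06, positive in all 8 columns (mean 0.63 ± 0.33, SD, n = 4; adjusted p = 0.225, limma). Ctsh, a lysosomal cysteine protease, had a mean of 0.56, Prkg1, the cyclic GMP-dependent protein kinase, 0.55, and Entpd1, an ectoenzyme that breaks down extracellular ATP, 0.55. In Prkg1 pairs 2 and 3 were near 0, at 0.03 and 0.04, and pairs 1 and 4 at 0.89 and 1.25.

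On the negative side, Etfdh, Mb, Ivd and Hspd1 held their sign in all 8 columns. Etfdh passes electrons from fatty acid and amino acid oxidation to the respiratory chain, and had -0.99, -0.73, -0.29 and -0.83, negative in all 8 columns, with a mean of -0.71 ± 0.30 (SD, n = 4; adjusted p = 0.123, limma). Hadha and Hadhb, the subunits of the mitochondrial trifunctional protein of fatty acid oxidation, had means of -0.48 ± 0.25 and -0.47 ± 0.30 (SD, n = 4), both lowest in pair 1 and nearest to 0 in pair 4. Ivd, of leucine breakdown, had -0.65, -0.76, -0.58 and -0.19 (mean -0.55 ± 0.24, SD, n = 4; adjusted p = 0.317, limma). Mb, myoglobin, the oxygen store of heart muscle, had -0.79, -0.46, -0.61 and -0.33, negative in all 8 columns (mean -0.55 ± 0.20, SD, n = 4; adjusted p = 0.317, limma). Hspd1, the mitochondrial chaperonin, had -1.21, -0.43, -0.52 and -0.22 (mean -0.59 ± 0.43, SD, n = 4; adjusted p = 0.284, limma). In Etfdh pair 3 was nearest to 0, and in the other 5 it was pair 4, the array with the positive median. The 33 genes were picked for 1 sign, so their counts and signs are a description.

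**Figure D2:**
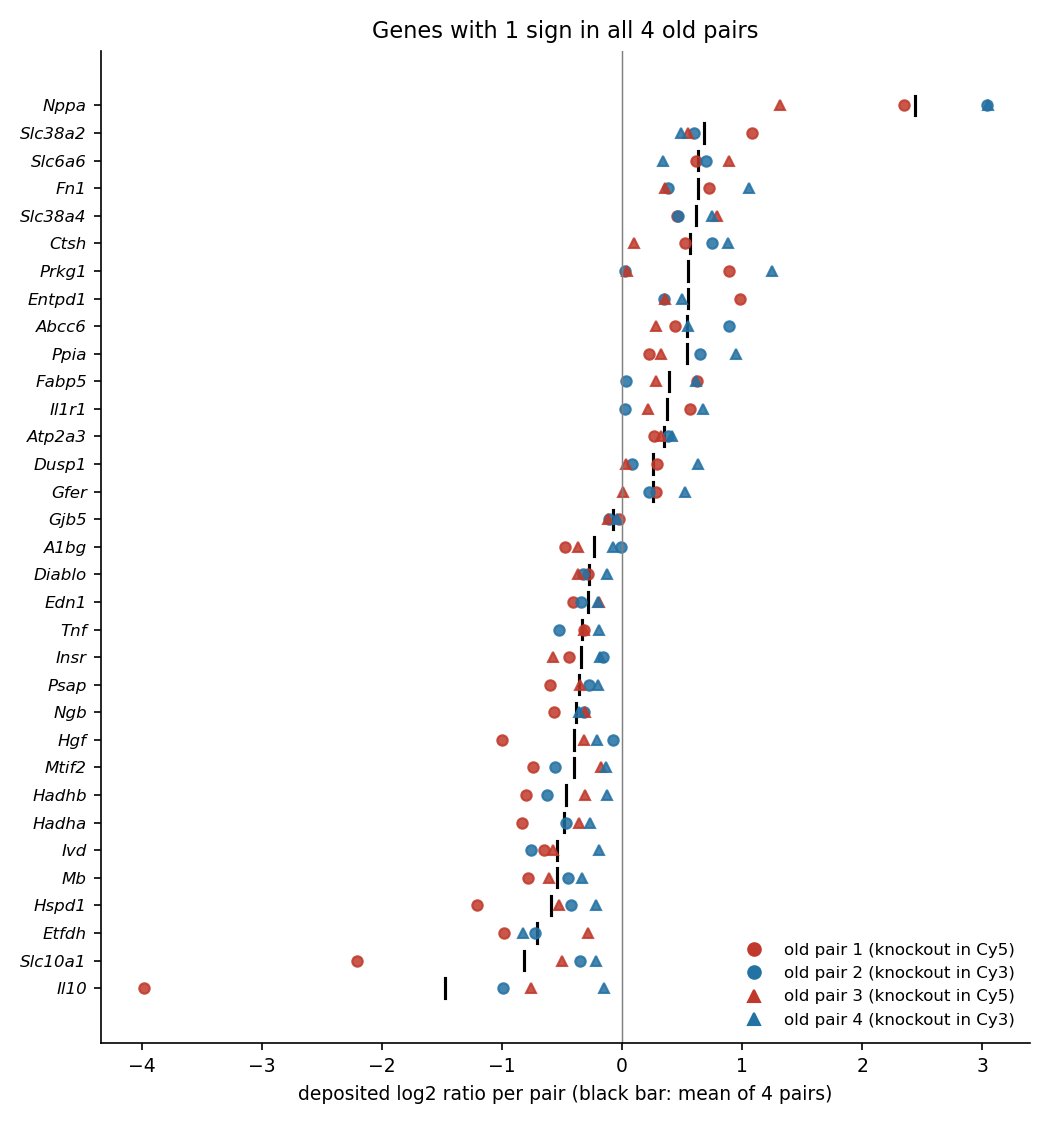
Log2 ratio per pair (horizontal axis) of the 33 genes with 1 sign in all 4 old pairs, sorted by mean, with red for the knockout in Cy5, blue for Cy3, circles for pairs 1 and 2, triangles for pairs 3 and 4, and a black bar for the mean. Nppa stands apart on the positive side with a mean of 2.44, and in Il10 and Slc10a1 pair 1 lies far below the other pairs.

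By gene list, the measured members were few and mostly not past the threshold, 30 of the 219 genes are in no list, and each list is given beside all genes, whose median mean was -0.03 with 102 positive and 117 negative. Of 6 measured genes of fatty acid and lipid metabolism, 5 had a negative mean and the list median was -0.38. None passed, and 3, Etfdh, Hadha and Hadhb, were negative in all pairs, while Fabp5, a fatty acid binding protein, was positive in all pairs with a mean of 0.39. All 4 listed heat shock proteins and chaperones that were measured had a negative mean, with a median of -0.35 and none past the threshold, and Hspa2, which the list does not hold, had a mean of -0.27. The partner of Hspd1, Hspe1, had -1.09, -0.005, -0.66 and 0.05, negative where the knockout was in Cy5 and near 0 where it was in Cy3.

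Of 11 osmotic stress and osmolyte genes, 5 were positive and 6 negative, with a median of -0.02 and 1 past the threshold, Slc5a3. Its members went to opposite sides: next to Slc38a2 and Slc38a4 above, Slc6a12, the betaine and GABA transporter, had a mean of -0.49 with a spot at the end of the scale, and Aqp9, a channel for water and glycerol, 0.76 with 3 such spots. The 8 aquaporins had a median of -0.06, none past the threshold. Of 5 listed amino acid transporters, 3 were positive, with a median of 0.20 and none past the threshold, and Slc7a3, a cationic amino acid carrier that the list does not hold, had a mean of 0.08.

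Of the 4 hypertrophy and fetal genes, Nppa and Acta1 lay on opposite sides and the others did not pass: Myh7, the slow myosin heavy chain, had a mean of 0.23 ± 0.89 and Ankrd1, a stretch-responsive protein of the sarcomere, 0.56 ± 0.75 (SD, n = 4). Myh7 was positive in pairs 1 and 4 and negative in pairs 2 and 3. Ankrd1 had 0.49, 0.12, -0.01 and 1.63, highest in pair 4. Of 5 contractile genes Acta1 alone passed. In the list of natriuretic peptide, cyclic GMP and nitric oxide signalling, 8 of 9 genes had a positive mean, with a median of 0.15 and Nppa past the threshold. Its receptor Npr1 had a mean of 0.24, the subunits of soluble guanylate cyclase Gucy1a1 and Gucy1b1 0.21 and 0.15, and Nos2, the inducible nitric oxide synthase, -0.42. Both cyclase subunits were positive in pairs 1 to 3 and negative in pair 4, opposite to the lean of that array.

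Of 7 genes of the extracellular matrix and its proteases, 6 had a positive mean, with a median of 0.18 and none past the threshold. The list median was -0.18, 0.19, -0.31 and 0.99 in pairs 1 to 4. Fn1 led, and Timp1, an inhibitor of matrix metalloproteases, had -0.10, 0.16, -0.20 and 1.67, so that its mean of 0.38 came from pair 4. The fibrillar collagens Col1a1, Col1a2 and Col3a1 had means of -0.06, 0.18 and 0.12. Of 3 listed cathepsins all had a positive mean, with a median of 0.29 and none past the threshold. The list median was -0.16, 0.28, -0.17 and 1.09 in pairs 1 to 4. Without pair 4 the means were -0.02 for Ctsb, -0.23 for Ctsl and 0.46 for Ctsh. Ctsc, which the list does not hold, had a mean of 0.38. The 7 cytokines and receptors had a median of -0.03, with Il10 past the threshold, Tnf negative in all pairs (mean -0.34) and Il1r1, an interleukin 1 receptor, positive in all pairs (mean 0.37). Of 9 genes of oxidative stress and glutathione, 7 had a negative mean, with a median of -0.07 and none past the threshold. Sod2, the superoxide dismutase of mitochondria, had -0.40, and Hmox1, which degrades haem, 0.52.

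The 6 measured ABC transporters all had a positive mean, from 0.07 for Abcc5 to 0.86 for Abcc3, with a median of 0.48 (0.44 without values at the scale ends) and 1 past the threshold, Abcc3. Their median dye coefficient was -0.29, 5 of 6 being negative, beside -0.17 and 165 of 219 over all genes, and their young median was -0.25. Abcc6 alone of them was positive in all pairs, at 0.44, 0.89, 0.28 and 0.55, and the only bile acid uptake carrier measured was Slc10a1.

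**Figure D3:**
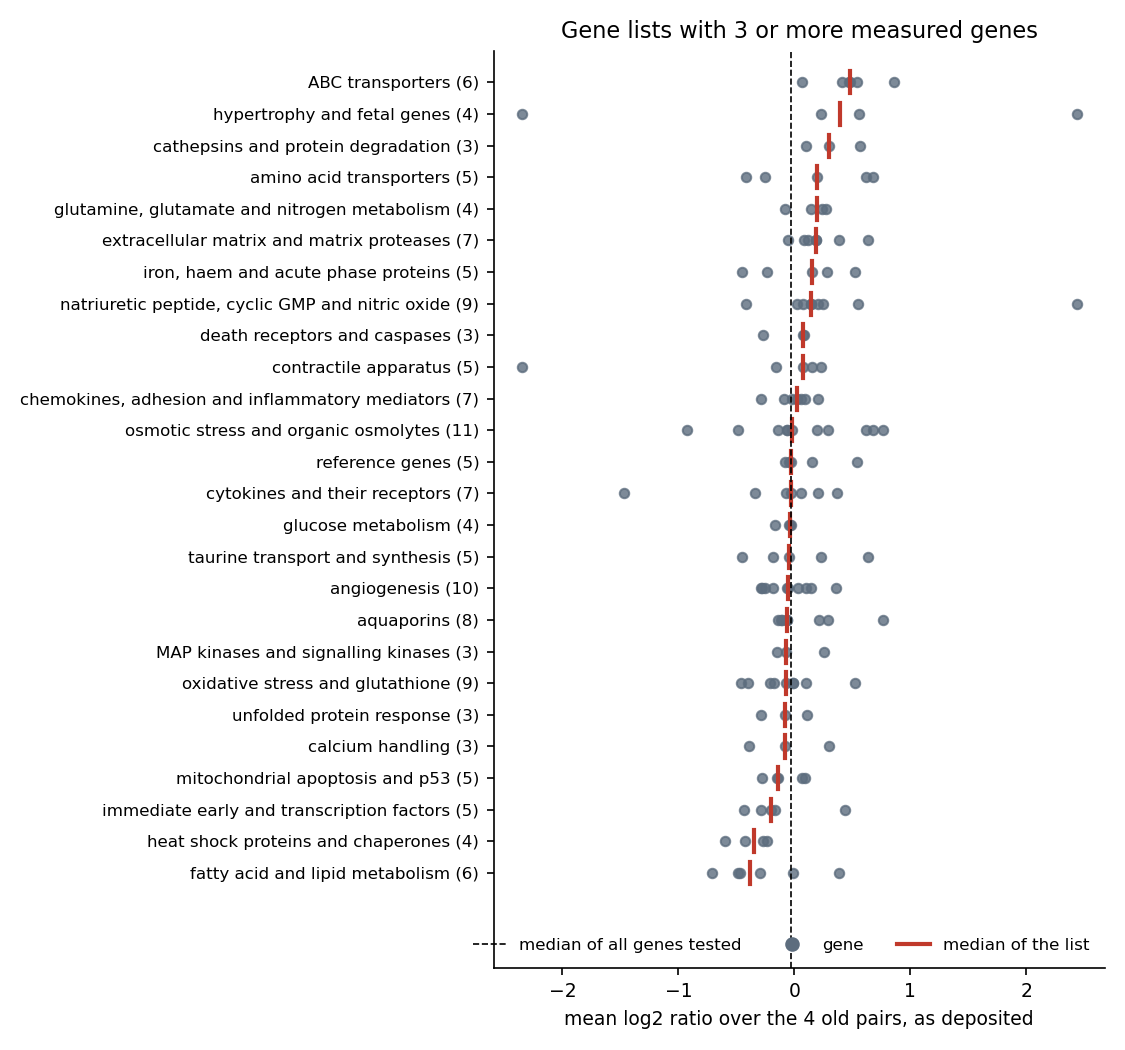
Mean log2 ratio over the 4 old pairs (horizontal axis) of each measured gene (grey point), by list with the number measured in brackets, for lists with 3 or more measured genes, without the 9 lists made after the array's gene names were seen; the red bar is the median of the list and the dashed line the median of all 219 genes, -0.03. The medians of the lists shown run from -0.38 for fatty acid and lipid metabolism to 0.48 for ABC transporters, and Nppa and Acta1 lie far outside the other genes.

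The labelled tissue was looked at through its markers, but ratios carry no level, so they cannot show which cells the RNA came from. Of 16 cardiomyocyte markers 6 were measured, with a median of 0.03, and Nppa alone passed. Apart from it, the values ran from -0.55 for Mb to 0.30 for Ryr2, the calcium release channel. Of the fibroblast list 5 were measured, with a median of 0.18, 4 positive and none past the threshold, and of the endothelial list 7, with a median of -0.02 and none past it. Pair 4 gave the fibroblast list a median of 1.03, against -0.10, 0.16 and -0.31 in pairs 1 to 3. Without pair 4 the means were -0.29 for Col1a1, -0.10 for Col1a2, -0.17 for Col3a1 and 0.49 for Fn1. Why pair 4 differed was not tested. Hepatocyte markers had 6 measured genes, a median of -0.17 and Slc10a1 past the threshold, and of the leukocyte list 1 gene, Ncf1, was measured (mean 0.13). No gene of the smooth muscle, erythroid or adipocyte lists was measured.

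The dye coefficient of the old pairs passed the threshold in 11 of 219 genes, all on the negative side (5.02%), with 21 at an unadjusted p under 0.05. They were Acta1, Abcb11, Abcc3, Aqp9, Slc5a3, Hspb1, Mt1, Il10, Slc6a12, Hmox1 and Glul, of which 6 have spots at the ends of the scale and 5 do not. The median coefficient was -0.17, 165 genes were negative, and 0 genes passed after each array was centred (19 at an unadjusted p under 0.05). In 94 of 219 genes (42.9%) both pairs with the knockout in Cy5 lay below both pairs with it in Cy3, and in 12 above. The array medians had the same order, -0.26 and -0.19 with the knockout in Cy5 and -0.03 and 0.39 with it in Cy3. The level of the arrays thus enters these counts of signs and order, which are given for the arrays as deposited only. Hspb1, a small heat shock protein, had -0.79, 0.94, -1.57 and 0.48 in pairs 1 to 4. Mt1, a metal-binding metallothionein, had -0.77, 1.19, -1.12 and 0.65. Both were negative with the knockout in Cy5 and positive with it in Cy3, and their means were near 0, at -0.24 and -0.01. Hmox1 (0.17, 1.09, -0.84 and 1.69) and Glul, glutamine synthetase (-0.29, 0.82, -0.72 and 1.30), also did not overlap between the orientations.

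**Figure D4:**
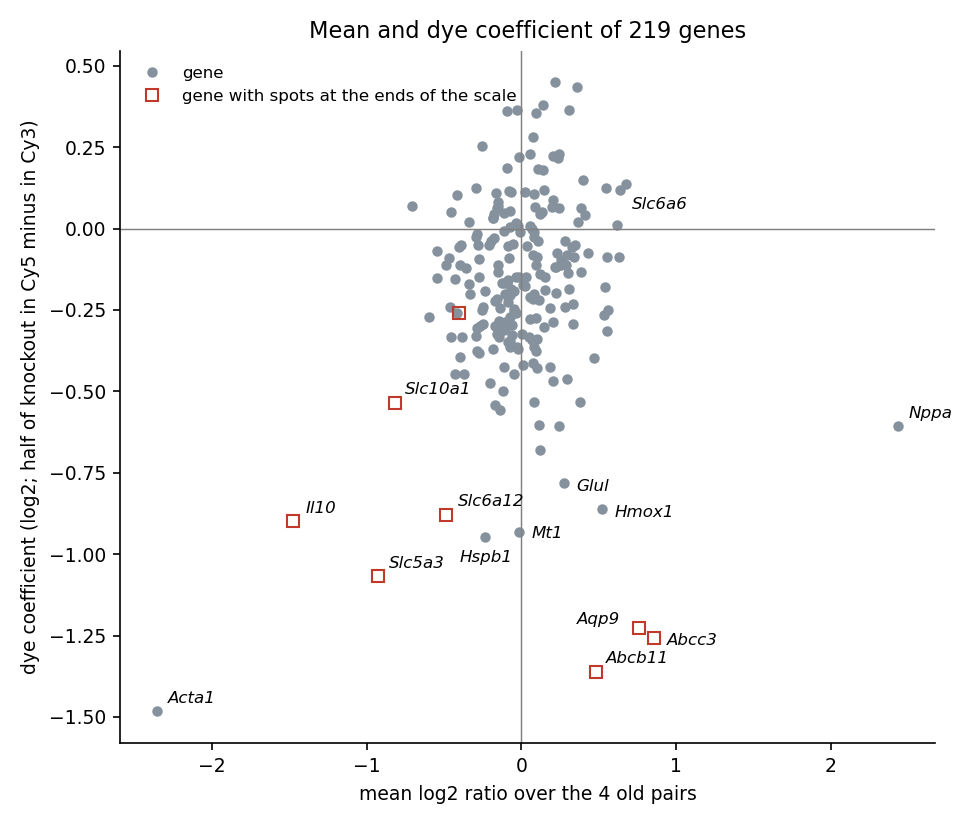
Mean log2 ratio over the 4 old pairs (horizontal axis) and dye coefficient (vertical axis, log2) of the 219 genes, with red squares for the 8 genes that have spots at the ends of the scale; labelled genes passed the threshold for one or the other, except Slc6a6. Nppa lies far from 0 in the mean, Acta1 in both, and Mt1 and Hspb1 in the dye coefficient alone.

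In part of the genes the dye coefficient had the opposite sign in the young hearts. Gapdh, an enzyme of glycolysis often used as a reference, had -0.55, 0.41, -0.43 and 0.40 in old pairs 1 to 4. In young pairs 1 to 5 it had 0.58, -1.04, 0.72, -0.87 and 0.76. At either age the orientations did not overlap, but the knockout-in-Cy5 pairs were the lower ones in the old and the upper ones in the young hearts. Its dye coefficient was -0.45 in the old and 0.83 in the young pairs, a difference of -1.27 ± 0.20 (SE; adjusted p = 0.00207, limma, 9 pairs). Over 218 genes, the difference passed in 23 (10.6%), 22 of them more negative in the old pairs, with 59 at an unadjusted p under 0.05. In 21 of them the coefficient was negative in the old and positive in the young pairs, and in 20 of the 22 the 2 orientations did not overlap at either age, in opposite order, a pattern that 42 of all 218 genes (19.3%) had and that the test itself favours. The largest difference was that of Mt1, -1.86 ± 0.25 (SE; adjusted p = 0.00084, limma), and the 1 gene on the other side was Aqp5, a water channel. With the arrays centred 17 genes passed, with values at the scale ends left out 22, and on single grids 3 and 9. Across the 218 genes the coefficients of the 2 ages correlated at -0.28 (Pearson) and -0.34 (Spearman), a description only, and 142 genes had opposite signs. This test was added after the data had been seen.

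**Figure D5:**
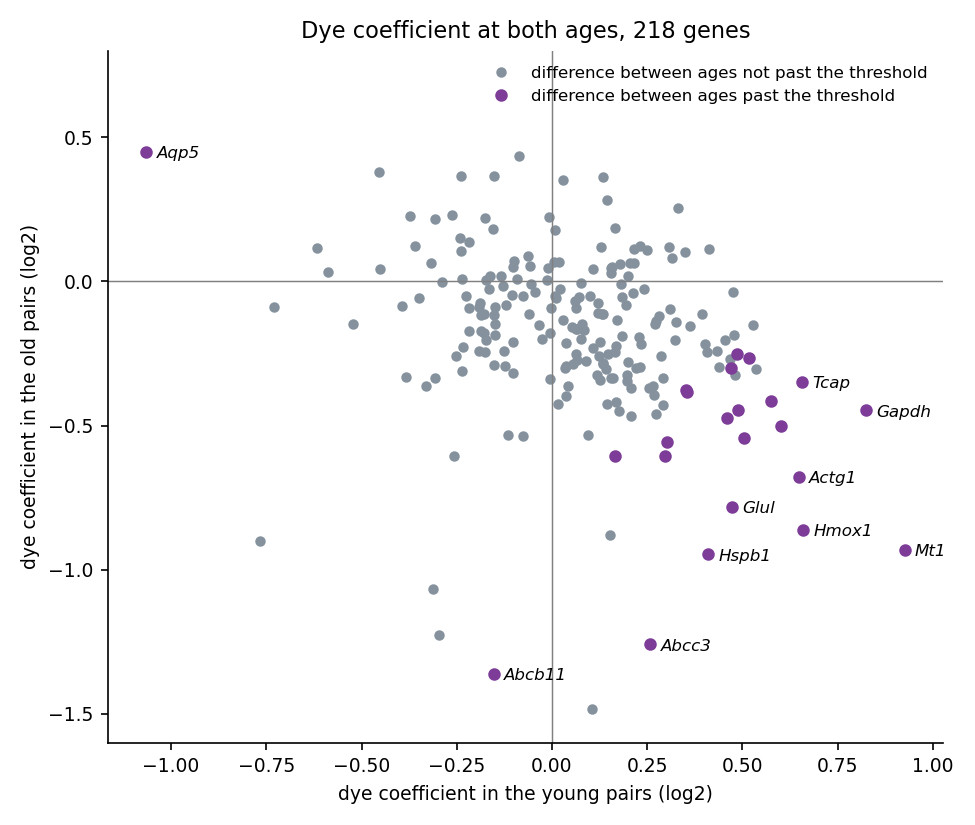
Dye coefficient (log2) in the 5 young pairs (horizontal axis) and the 4 old pairs (vertical axis) for 218 genes, with the 23 genes whose coefficients differed between the ages past the threshold in purple. Of these, 21 lie at the lower right, negative in the old and positive in the young pairs, and Aqp5 at the upper left.

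The mean over the pairs was not found to differ between the ages in any of the 218 genes tested at both. In limma on 9 pairs 0 were called (0%, smallest adjusted p = 0.971), with 2 genes at an unadjusted p under 0.05. That fit holds 1 dye coefficient for both ages, so where the coefficient differed between them, the difference went into the error and the estimates. With a dye coefficient for each age, the difference of the means was not tested. The 3 genes with the smallest p were Il10, with a difference between old and young of -1.49 ± 0.51, Abcc2, an organic anion pump, with 0.72 ± 0.28, and Nme1, a nucleoside diphosphate kinase, with 0.61 ± 0.29 (SE). Without old pair 3, 2 genes passed, Il10 and Abcb11, the bile salt export pump. For Nppa the difference was -0.96 ± 0.50 and for Slc6a6 0.09 ± 0.24 (SE). The sign of the young mean was the same in 31 of the 32 genes with 1 sign in the old pairs that were measured at both ages (Ngb differed), and in 144 of all 218 genes (66.1%).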

How the data were processed

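RNA from hearts of old and young wild-type and Taut knockout mice was compared on spotted oligonucleotide arrays. Per the labels' protocols, total RNA was taken with Trizol and RNeasy, and oligo(dT)-primed cDNA was labelled with Cy3 or Cy5 dUTP. Per the labels, the authors scaled each channel globally, without the 20% brightest and the 20% dimmest signals. The deposited values are log2 ratios without intensities, and 99.9% of them come from ratios with 2 decimals (tolerance 0.02 hundredths). No source used here names the scanner or the background correction.

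All 528 spots with a symbol were matched to RefSeq by gene ID (GRCm38.p6), with no symbol changed. Spots of a symbol were averaged within a grid, then the 2 grids, giving 1 value per pair and no added centring. Another 56 features with values have no symbol, and none of them passed when single spots were tested. Genes needed values in 3 pairs. Each was fitted with limma 3.58.1 in R 4.3.3 as a mean and a dye coefficient (2 residual degrees of freedom, prior degrees infinite), tested two-sided and adjusted by Benjamini-Hochberg over 219 genes. The means of the ages were compared in a fit of all 9 pairs with 1 dye coefficient for both ages. Dye coefficients were compared in a fit of all 9 pairs with 1 for each age. The pairs share a number between ages but no animal. The script was tested on simulated data. Figures used Python 3.11.15 and matplotlib 3.10.9.

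The genes named are Slc6a6, those past the threshold filled to 8 per side, the 2 of each list with the smallest p, up to 5 for the dye coefficient, 8 with 1 sign in all columns, the 5 widest ranges and 3 for the age difference. Others (such as Hadhb, Gucy1a1, Sod2, the collagens, Ctsc, Slc7a3, Hspa2 and Aqp5) were named after their values were seen. Members and lists were chosen with earlier results of these data known, and 9 of the lists after the array's gene names were seen. Alternatives were the fit without the dye coefficient, centring, scaling, single grids, grids with a random array block, spot medians, other filters, robust fits, array weights, the fit of all pairs, the reading as Cy5 to Cy3 and leaving out each pair.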

Additional observations from a re-analysis of the deposited data

Results flagged for a closer look

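In 3 of 77 named genes 1 pair stood far from the other 3, where chance gives about 1 in 20: Aifm1 in pair 4 (0.24, the others from -0.31 to -0.26), Lbp in pair 3 (-0.073, the others from 0.41 to 0.45) and Slc10a1 in pair 1 (-2.21). Over all 219 genes 8 had such a pair.

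The dye coefficient differed between old and young pairs in named genes past the threshold, each time more negative in the old. The difference was -1.86 for Mt1, -1.52 for Hmox1, -1.52 for Abcc3, -1.36 for Hspb1 and -1.27 for Gapdh. It was -1.25 for Glul, -1.21 for Abcb11, -1.10 for Slc25a4 and -1.05 for Slc2a4. In the others it was -0.78 for Ppia, -0.77 for Nme2 and -0.74 for Mrpl43. The differences of Abcc3 and Abcb11 rest in part on spots at the ends of the scale in the old pairs. Slc25a4 is the ADP/ATP carrier of heart mitochondria, Slc2a4 the insulin-responsive glucose transporter and Ppia a peptidyl-prolyl isomerase often used as a reference. In Ppia all 4 old pairs were positive, at 0.22, 0.65, 0.32 and 0.95, so its orientations differed in size and not in sign.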

How the results depend on the processing

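The 6 genes past the threshold became 1 without the dye coefficient, with arrays centred, with arrays centred and scaled, on grid 1 alone and in the fit of all 9 pairs. They became 2 with robust empirical Bayes and with values at the scale ends and the dye coefficient left out, 3 with grids in a random array block, with end values left out and with 0 and end values left out, 11 in the reading as Cy5 to Cy3, and 3 to 7 when 1 pair was left out. The dye coefficient's 11 became 0 with arrays centred, with arrays centred and scaled and on grid 1, 1 with the random array block, 5 without end values, 6 without 0 and end values and 6 with robust empirical Bayes, and 5 to 6 without 1 pair. The 23 genes for the dye difference between ages became 3 on grid 1, 9 on grid 2 and 13 to 33 without 1 old pair. The age difference of the mean gave 0 genes with the pair number as a replicate block, which pairs no animals, and 0 to 2 without 1 pair.

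Nppa kept its side and call in 20 of 21 alternatives, Acta1 in 15, Il10 in 12, Slc5a3 in 8, Abcc3 in 7 and Slc10a1 in 7. These counts include alternatives that could not change the values of these genes. Each has 2 spots per grid, so the spot median equals the spot mean. Each also has a value in every spot, so filters on the number of values take none out. A kept call in such alternatives is no check, and the counts overstate how stable the calls are. The reading as Cy5 to Cy3 is also among the alternatives, and a kept or lost side has no meaning there. The reading as Cy5 to Cy3, whose sign is knockout over wild type and cannot be set against the deposited sign, gave -0.61 for Nppa, -1.26 for Abcc3, -1.36 for Abcb11, -1.23 for Aqp9, -0.78 for Glul and -0.86 for Hmox1, and grid 1 alone turned Abcc3 to -0.028. The causes were not tested. Of 343 list medians 342 moved by less than their spread.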

Other observations

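Among genes that no comparison above described, those of adenosine and nucleotide metabolism, a list made after the array's gene names were seen, had 11 measured members with a median of -0.04 and none past the threshold. Entpd1 was positive in all pairs, while Nt5e, which makes adenosine from AMP outside cells, had a mean of -0.25 and Ak1, an adenylate kinase of muscle, -0.33. The 10 apolipoproteins had a median of -0.09, 7 of them negative, and the 14 genes of ribosomal proteins and translation -0.06, 9 of them negative. None of either list passed. Gja1, the main gap junction protein of heart muscle, had a mean of 0.08 ± 0.25 (SD, n = 4), and Atp2a3, a calcium pump, had 0.26, 0.38, 0.32 and 0.41, the closest 4 pairs among genes positive in all. The grids of Atp2a3 lay far apart, at 0.75 and -0.22 in pair 1 and -0.18 and 1.00 in pair 4, with 2 columns negative. Its closeness is thus one of grid averages.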
